A study of Rattus norvegicus with 12 samples.

Results

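The comparison described here set the livers of rats that received N-nitrosodiethylamine (NDEA) and drank CFT-1 green tea infusion (the NDEA+CFT-1 group, 3 libraries) against the livers of rats that received NDEA and drank water (the NDEA group, 3 libraries). These are 6 of the 12 RNA-seq libraries of the series. The table lists 34194 gene IDs, and the 11983 IDs with a mean of at least 1 FPKM (reads divided by gene length and by the reads on genes of the library) over these 6 libraries were compared. All rats were male Wistar rats, and ages are not given in the sources used here. Rats of the NDEA, NDEA+CFT-1 and NDEA+FYT groups were injected intraperitoneally with 25 mg/kg NDEA from week 2 to week 9, and livers were taken after 20 weeks. CFT-1 is a tea cultivar rich in epigallocatechin-3-gallate (EGCG) and was given as an infusion for the 20 weeks. The NDEA+FYT group drank an infusion of the common tea Fuyun6 for the same time, and the Control group received saline injections and water. Each library is labelled as 1 liver sample. The labels do not say that each sample came from a different rat, so p-values measure the spread between these samples.

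NDEA is a nitrosamine that liver cytochrome P450 enzymes turn into an agent that ethylates DNA, and repeated doses give liver tumours in rats. EGCG is the main catechin of green tea, a polyphenol with antioxidant activity. The question of the comparison is what a tea with much EGCG does to liver transcripts when NDEA is given. A liver sample of this kind holds hepatocytes together with bile duct, stellate, endothelial and immune cells, so that fewer cells of a type and less RNA per cell cannot be told apart. The paper reports more liver nodules and tumours in the NDEA group than in the NDEA+CFT-1 group. Its methods do not say whether the sequenced samples held tumour, and tumour content was not tested. The IDs could not be paired with gene symbols here, so hepatocyte and other cell type markers, and the genes of the PI3K-Akt, NF-κB, cytochrome P450 and other pathways, were not analysed. Genes are therefore described by level, length and kind of ID, and single genes by ID.

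A pair of libraries stood apart from the others of their group, which touches most of the counts below. NDEA replicate 1 had the fewest reads on genes of the 12 libraries, 15495309, while NDEA replicates 2 and 3 had 20658085 and 22412494 and the NDEA+CFT-1 libraries had 25718705, 21181807 and 20419385. Its Pearson correlation with the other 11 libraries, across genes on the log2(FPKM + 1) scale, lay between 0.887 and 0.934. NDEA replicate 1 held the highest of the 6 values for 55.6% of the IDs, and NDEA+CFT-1 replicate 2 held the lowest for 41.7%. The median-of-ratios scaling factor, which brings the median gene of every library to a common level, was 1.32, 0.97 and 1.01 for NDEA replicates 1 to 3. It was 1.02, 0.85 and 0.98 for NDEA+CFT-1 replicates 1 to 3. After this scaling NDEA replicate 1 still held the highest value for 28.6% of the IDs and the lowest for 25.8%. The 100 most abundant IDs took 42.6% of the FPKM of NDEA replicate 1, less than in the other 5 libraries (47.2% to 50.6%). Why these libraries differed was not tested.

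**Figure D1:**
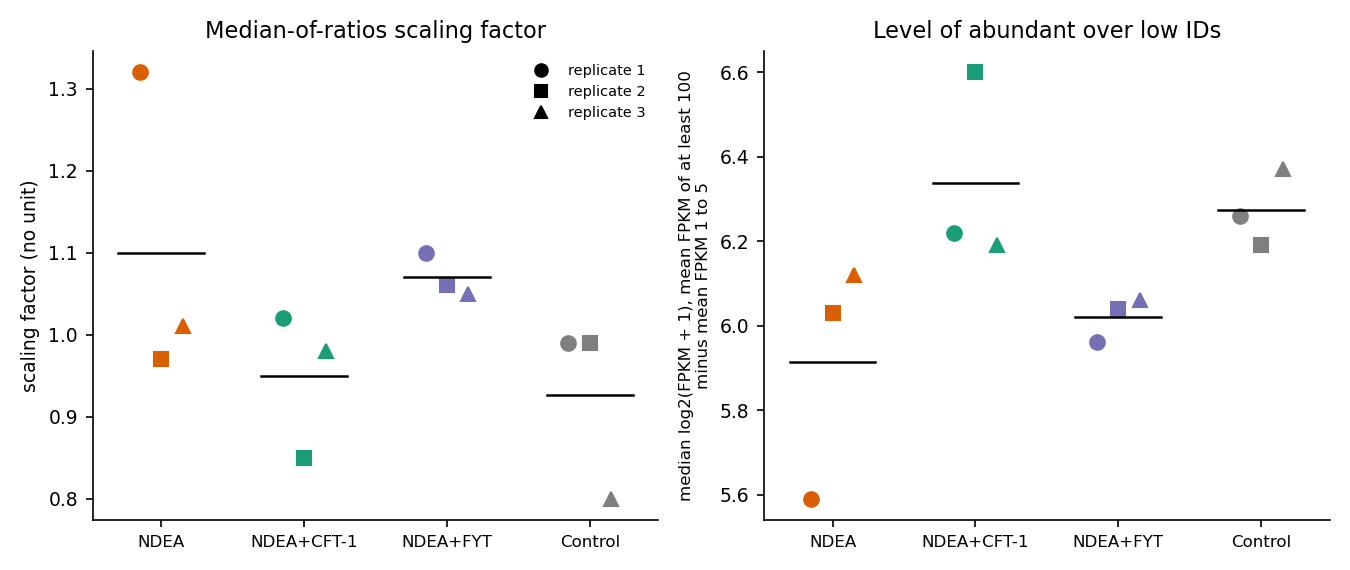
Left, the scaling factor of each of the 12 libraries, without unit; right, the median log2(FPKM + 1) of IDs with a mean of at least 100 FPKM minus that of IDs with 1 to 5 FPKM. Symbols mark replicates and bars the group means; NDEA replicate 1 has the highest factor (1.32) and the lowest difference (5.59), and NDEA+CFT-1 replicate 2 has the highest difference (6.60).

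Differences inside the groups covered much of the range of those between them. After scaling, 1.84% of the IDs differed by at least 2-fold in FPKM + 1 between NDEA+CFT-1 replicates 1 and 3, and 3.96% between NDEA replicates 2 and 3. NDEA replicate 1 differed that much from replicate 2 of its own group at 18.8% of the IDs and from replicate 3 at 14.0%. NDEA+CFT-1 replicate 2 differed from its group at 8.36% and 11.4%. Across the treatment, the libraries NDEA+CFT-1 replicates 1 and 3 differed from NDEA replicates 2 and 3 at 2.83% to 4.62% of the IDs, a range that overlaps the one inside the groups. Pairs across the treatment that held NDEA replicate 1 or NDEA+CFT-1 replicate 2 differed at 9.07% to 19.4%. The median coefficient of variation between libraries was 20.6% in the NDEA+CFT-1 group and 23.4% in the NDEA group. Counting error alone, from a median of 324 and 341 reads per ID, gives 5.56% and 5.42%. Counting variance was under 0.1 of the variance between libraries for 54.0% and 60.2% of the IDs.

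No ID passed the threshold of 0.05 between NDEA+CFT-1 and NDEA once p-values were adjusted over all 11983 IDs (limma, Benjamini-Hochberg method, smallest adjusted p = 0.332). As deposited, 209 IDs were higher and 1294 lower with CFT-1 at an unadjusted p under 0.05, which is 1.74% and 10.8% of those tested. Scaling made the directions less unequal, with 726 IDs higher (6.06%) and 1016 lower (8.48%), and again none at the adjusted threshold (smallest adjusted p = 0.179). The count test on reads recovered from the FPKM values, limma-voom after scaling, made 0 calls as well, with 714 higher and 988 lower at the unadjusted threshold (smallest adjusted p = 0.205). The excess of lower IDs thus shrank with the scaling, which moved the median log2 fold change over all IDs from -0.17 to 0.00.

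The 6 values did not overlap between the groups for 1994 IDs as deposited (16.6%), of which 321 were higher (2.68%) and 1673 lower (14.0%). After scaling this held for 2222 IDs (18.5%), with 951 higher (7.94%) and 1271 lower (10.6%). After quantile normalization 899 were higher and 858 lower, so the excess of lower IDs was not seen in that setting. As deposited, group means of FPKM + 1 were at least 2-fold higher with CFT-1 for 30 IDs (0.250%) and at least 2-fold lower for 635 (5.30%). The lower count ran from 182 to 1119 with 1 library left out. With scaled values these counts were 57 (0.476%) and 320 (2.67%).

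How many IDs were higher or lower as deposited changed with the pair of libraries that stood apart. The median log2 ratio of NDEA+CFT-1 replicates 1, 2 and 3 to NDEA replicate 1 was -0.33, -0.56 and -0.38. To NDEA replicate 2 it was 0.06, -0.14 and 0.03, and to NDEA replicate 3 it was 0.01, -0.21 and -0.03. Ratios well under 0 therefore appeared wherever 1 of those libraries entered, and the other 4 ratios lay between -0.03 and 0.06. Without NDEA replicate 1, 408 IDs were higher and 614 lower at the unadjusted threshold. Without NDEA+CFT-1 replicate 2, 350 were higher and 672 lower, and the smallest adjusted p was 0.0713. With both libraries left out, 440 were higher and 351 lower, so that more IDs were higher than lower, and none was called (smallest adjusted p = 0.0821). The IDs at least 2-fold apart in group means still leaned to the lower side in that setting, 37 higher and 161 lower. Leaving out NDEA replicate 2 went the other way, to 220 higher and 2151 lower. Leaving out NDEA+CFT-1 replicate 1 brought the higher IDs down to 109, beside 1276 lower. In each of the 6 fits with 1 library left out, limma called 0 IDs at the adjusted threshold.

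**Figure D2:**
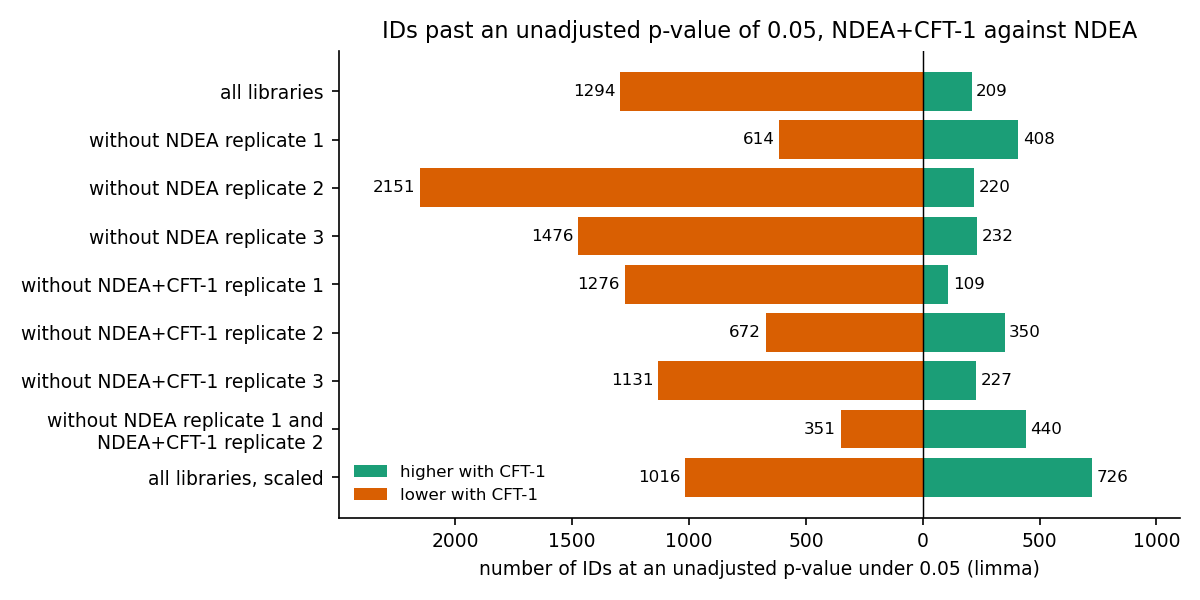
Bars give the number of IDs that limma put under an unadjusted p of 0.05, higher with CFT-1 to the right and lower to the left, with all libraries, with libraries left out as named, and after scaling. Lower IDs run from 351, without both libraries that stand apart, to 2151, without NDEA replicate 2.

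Weighting the libraries by how well each fits its group gave the only calls among the settings run. The weight of NDEA replicate 1 was 0.126 and that of NDEA+CFT-1 replicate 2 was 0.226, against 6.80 for NDEA+CFT-1 replicate 1. After scaling the weights shifted, to 0.188 and 0.254 for these libraries, 0.427 for NDEA+CFT-1 replicate 1 and 6.72 for NDEA replicate 3, which had 1.36 before. With the weights of the deposited values limma called 6 IDs (0.0501%; 1 higher, 5 lower, smallest adjusted p = 0.0255). With scaling and weights it called 76 IDs (0.634%; 9 higher, 67 lower), and limma-voom with quality weights called 75 (0.626%; 19 higher, 56 lower), both chosen after the data were seen. The weighted fits shared 5 called IDs, 1 higher and 4 lower with CFT-1. Their unweighted log2 fold changes ran from -1.24 to 1.84.

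The median fold change moved upwards with the level of the transcript. As deposited, the median log2 fold change was -0.30 among the 4856 IDs with a mean of 1 to 5 FPKM and -0.17 among the 4079 IDs with 5 to 20 FPKM. It was 0.00 among the 2179 IDs with 20 to 100 FPKM and 0.14 among the 869 IDs with at least 100 FPKM. After scaling these medians were -0.16, 0.02, 0.20 and 0.34, beside 0.00 over all IDs. Of the 869 abundant IDs, 148 were higher at the unadjusted threshold after scaling (17.0%) and 12 lower (1.38%). As deposited these counts were 69 (7.94%) and 19 (2.19%). Of the 4856 low IDs, 56 were higher after scaling (1.15%) and 584 lower (12.0%), against 20 (0.412%) and 713 (14.7%) as deposited. The filter and the classes were set by the mean of the same deposited values, of which NDEA replicate 1 held the highest for 55.6% of IDs. An ID could thus enter the low class through high values in 1 group alone. How far this shaped the medians and counts was not tested. The 208 IDs higher at the unadjusted threshold on both scales had a median level of 49.8 FPKM, and the 1013 lower ones had 4.12 FPKM, against 7.04 FPKM over all tested.

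**Figure D3:**
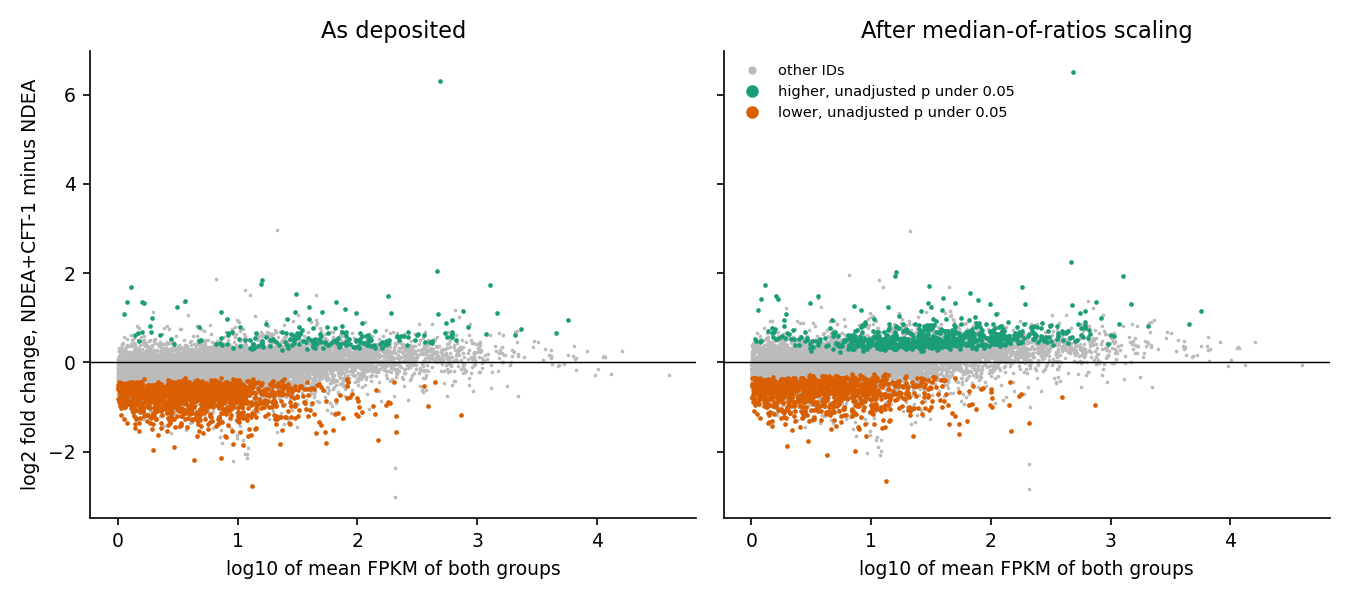
Each point is 1 of 11983 IDs; the horizontal axis is log10 of the mean of the group mean FPKM values and the vertical axis the log2 fold change of FPKM + 1, NDEA+CFT-1 minus NDEA, as deposited (left) and scaled (right). Coloured points have an unadjusted p under 0.05, and after scaling the 726 higher ones lie mostly to the right of the 1016 lower ones.

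This pattern can be read in each library as the median log2(FPKM + 1) of the abundant IDs minus that of the low IDs. The difference was 6.22, 6.60 and 6.19 in the NDEA+CFT-1 libraries and 5.59, 6.03 and 6.12 in the NDEA libraries. The groups did not overlap, although NDEA replicate 3 and NDEA+CFT-1 replicate 3 lay close together. The means were 6.34 ± 0.23 (SD, n = 3) and 5.91 ± 0.28 (SD, n = 3), a difference of 0.43. This measure was built after the trend with level had been seen in the same libraries and is given without a test. The NDEA+FYT libraries had a mean of 6.02 ± 0.05 (SD, n = 3) and the Control libraries 6.27 ± 0.09 (SD, n = 3). Against NDEA+FYT, the NDEA+CFT-1 mean was 0.32 higher, and 0.19 higher without NDEA+CFT-1 replicate 2. With the classes kept as they are, leaving out NDEA replicate 1 took the difference from NDEA to 0.27, and leaving out NDEA+CFT-1 replicate 2 took it to 0.30. Without both it was 0.13. In the scaled values, the medians of the low and the abundant IDs without both libraries were -0.06 and 0.12, the same order at a smaller size. After quantile normalization, which gives every library the same distribution of values, the difference from NDEA was 0.01.

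**Figure D4:**
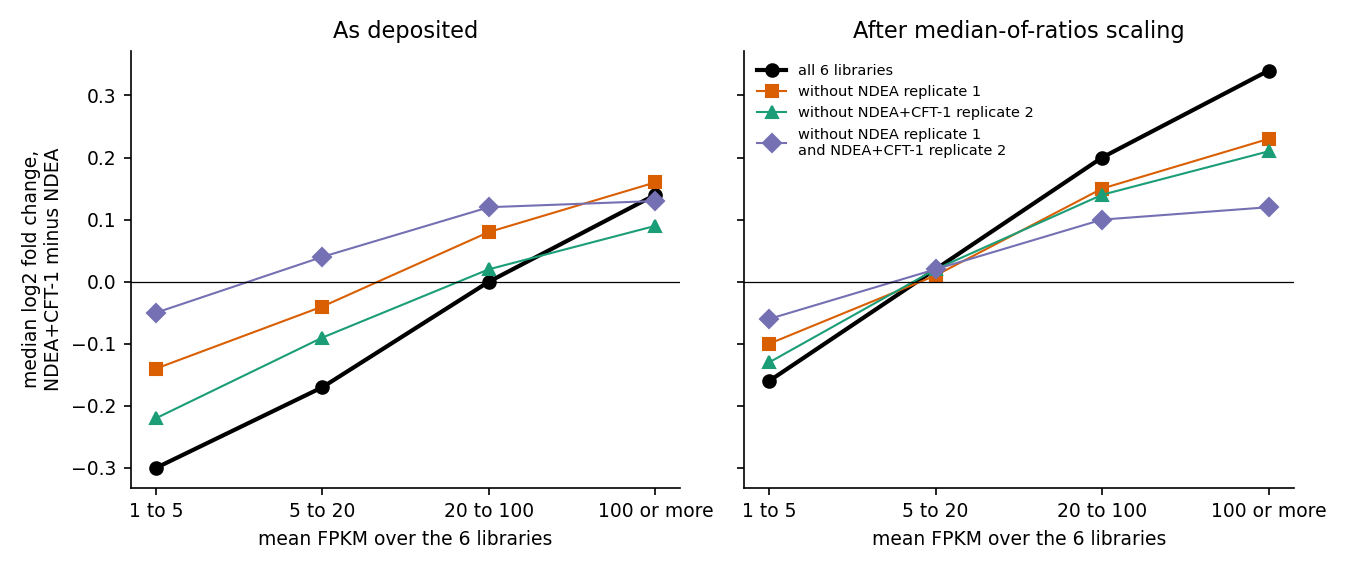
Median log2 fold change, NDEA+CFT-1 minus NDEA, of IDs in 4 classes of mean FPKM, as deposited (left) and after scaling (right). With all 6 libraries the scaled medians run from -0.16 to 0.34, and without NDEA replicate 1 and NDEA+CFT-1 replicate 2 from -0.06 to 0.12.

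Gene length ran along with level. With the IDs split by length into 3 classes of like size, the shortest (up to 1524 bp) had a scaled median log2 fold change of 0.07 and a median level of 11.7 FPKM. The middle class had 0.02 and 8.26 FPKM, and the longest class (over 2645 bp) had -0.08 and 4.60 FPKM. As deposited the 3 medians were -0.10, -0.15 and -0.24, in the same order but all under 0. Without NDEA replicate 1 and NDEA+CFT-1 replicate 2 the 3 scaled medians were 0.04, 0.03 and -0.02. Among the longest class, 154 IDs were higher at the unadjusted threshold after scaling (3.86%) and 512 lower (12.8%). Over all IDs these shares were 6.06% and 8.48%. As deposited, 48 IDs of the longest class were higher and 618 lower, so it leaned to the lower side on both scales. Among the shortest class, 299 were higher after scaling (7.48%) and 218 lower (5.45%). As deposited, 86 were higher (2.15%) and 303 lower (7.58%), so the side to which this class leaned turned with the scaling. Length and level were not separated from each other. The 694 tested IDs that are not of the Ensembl form, and which the table does not explain, had a scaled median of -0.10 at a median level of 2.33 FPKM. Of these, 29 were higher (4.18%) and 71 lower (10.2%) at the unadjusted threshold after scaling. As deposited, 15 were higher (2.16%) and 94 lower (13.5%).

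Transcripts read in 1 group alone had few reads. In all, 2604 IDs were read in the NDEA group and in no NDEA+CFT-1 library, and 683 the other way round, with a median of 1 read per ID in either case. Most of them, 97.9% and 99.4%, had under 10 reads summed over the group, and 4 of the 2604 and 0 of the 683 reached the level needed to be tested. Among them were 137 IDs with 0 reads in all NDEA+CFT-1 libraries and at least 1 in each NDEA library, and 14 IDs the other way round. The 137 IDs had a median of 6 reads summed over the 3 NDEA libraries and at most 70, and the 14 IDs at most 13 in the NDEA+CFT-1 libraries. No ID had 0 reads in 1 group and at least 10 in each library of the other. Reads were found for 22356 IDs in the NDEA group and 20435 in the NDEA+CFT-1 group, and 16316 IDs were read in all 6 libraries.

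Single genes were taken from the IDs whose groups did not overlap, and whose unadjusted p was under 0.05, on both scales. This held for 140 IDs that were higher with CFT-1 (1.17% of those tested) and 825 that were lower (6.88%). Among the 12 with the largest difference in each direction, none was called in the unweighted fits as deposited and scaled. Library weights on the deposited values called 0 of the 24. Scaling with weights called 1 of the higher and 4 of the lower IDs, and limma-voom with quality weights 2 and 3, against 0.634% and 0.626% of all IDs; since these IDs were picked on the same values, nothing is read from the difference. Their log2 fold changes ran from 1.13 to 6.30 and from -2.19 to -1.62, with adjusted p-values of 0.332 to 0.394 and 0.332 to 0.378 in limma. In each direction the pair with the smallest scaled p of these 12 is given by ID, a choice made after the values were seen. Since the IDs were chosen for their p-values and for groups that do not overlap, the tests printed for them describe their size and spread. The filter used the same 6 values, so some of these IDs were tested only through the group where they are high.

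ENSRNOG00000017244 (1225 bp) was among the higher ones. It had 1.94, 3.70 and 2.52 FPKM in NDEA+CFT-1 replicates 1 to 3 and 1.05, 0.198 and 0.182 FPKM in NDEA replicates 1 to 3. The NDEA+CFT-1 values rested on 61, 96 and 63 reads and the NDEA values on 20, 5 and 5 reads. All the NDEA+CFT-1 libraries lay above all the NDEA libraries, of which replicate 1 was the nearest to them. The NDEA+FYT libraries had 0.977, 1.71 and 1.88 FPKM and the Control libraries 0.968, 0.607 and 1.12 FPKM. The group means were 2.72 ± 0.899 and 0.478 ± 0.499 FPKM (SD, n = 3 each), a 5.69-fold difference of the means. As the NDEA mean was under 1 FPKM, this ID passed the filter only through its NDEA+CFT-1 values. On the log2(FPKM + 1) scale, which understates changes of low genes, the fold change was 1.35 with an SE of 0.27 (limma, unadjusted p = 0.000371, adjusted p = 0.332). With library weights the adjusted p in limma was 0.0541, with scaling and weights 0.0322 and in limma-voom with quality weights 0.0343, and over all alternatives it ran from 0.0322 to 0.673. The direct difference from NDEA+FYT was 0.55 with an SE of 0.27 (limma, unadjusted p = 0.0675).

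Novel00492 (2674 bp), an ID of the form that is not Ensembl's, had 2.76, 2.40 and 1.34 FPKM with CFT-1 (190, 136 and 73 reads). The NDEA libraries had 0.0965, 0.145 and 0.417 FPKM (4, 8 and 25 reads), each lower than every library of the other 3 groups. The mean was 2.17 FPKM with CFT-1 and 0.220 FPKM in the NDEA group, so the filter was passed only through the NDEA+CFT-1 values. The NDEA+FYT libraries had 1.19, 0.823 and 2.98 FPKM and the Control libraries 0.690, 1.53 and 1.12 FPKM, so the tea groups overlapped each other. The log2 fold change against NDEA was 1.36 with an SE of 0.30 (limma, unadjusted p = 0.000835, adjusted p = 0.332). Its adjusted p ran from 0.0769 to 0.721 over the alternatives in limma. Against NDEA+FYT it was 0.30 with an SE of 0.30 (limma, unadjusted p = 0.338).

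ENSRNOG00000049077 (79 bp) was among the lower ones and has the highest FPKM of the 4 single IDs. That level rests on its short length, as it had fewer reads than ENSRNOG00000007657 in each of the 6 libraries. The paper's reads were longer than this gene, so its FPKM need not reflect its abundance. It had 95.5, 63.3 and 47.7 FPKM with CFT-1 (194, 106 and 77 reads) and 264, 184 and 228 FPKM in the NDEA libraries (323, 300 and 404 reads). The NDEA+FYT libraries had 201, 222 and 224 FPKM, and the Control libraries 167, 175 and 87.6 FPKM. The NDEA+CFT-1 values lay below all 6 values of the NDEA and NDEA+FYT groups, and the highest of them, 95.5 FPKM, lay above the lowest Control value. The means were 68.9 ± 24.3 and 225 ± 40.1 FPKM (SD, n = 3 each), 3.27-fold higher in the NDEA group. The log2 fold change against NDEA was -1.74 with an SE of 0.29 (limma, unadjusted p = 7.85e-05, adjusted p = 0.332), and -1.54 after scaling. With library weights the adjusted p in limma was 0.101, with scaling and weights 0.0198 and in limma-voom with quality weights 0.0343, and over all alternatives it ran from 0.0198 to 0.721. Against NDEA+FYT it was -1.69 with an SE of 0.29 (limma, unadjusted p = 0.000101, adjusted p = 0.92). With library weights on the deposited values that difference was -1.31 and was called (limma, adjusted p = 0.0156). It was not called with scaling and weights (adjusted p = 0.0621) or in limma-voom with quality weights (adjusted p = 0.0689), and over all alternatives the adjusted p ran from 0.0156 to 1.

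ENSRNOG00000007657 (5568 bp) had 1.37, 1.26 and 2.12 FPKM with CFT-1 (196, 149 and 241 reads) and 11.8, 4.41 and 6.55 FPKM in the NDEA libraries (1014, 507 and 818 reads). The NDEA+FYT libraries had 5.09, 6.99 and 3.64 FPKM and the Control libraries 3.47, 4.31 and 3.12 FPKM. Every NDEA+CFT-1 library was thus lower than each of the other 9. The highest value of all was in NDEA replicate 1, while NDEA replicates 2 and 3 were also above every NDEA+CFT-1 library. The means were 1.58 ± 0.467 and 7.57 ± 3.78 FPKM (SD, n = 3 each). The log2 fold change against NDEA was -1.65 with an SE of 0.30 (limma, unadjusted p = 0.000157, adjusted p = 0.332), and -1.49 after scaling. Library weights gave an adjusted p of 0.0541 in limma, scaling with weights 0.045 and limma-voom with quality weights 0.0299, in a range of 0.0299 to 0.721 over all alternatives. Against NDEA+FYT it was -1.25 with an SE of 0.30 (limma, unadjusted p = 0.00145, adjusted p = 0.92). With library weights on the deposited values it was -1.37 and was called (limma, adjusted p = 0.00835). It was not called with scaling and weights (adjusted p = 0.334) or in limma-voom with quality weights (adjusted p = 0.0689), in a range of 0.00835 to 1 over all alternatives.

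**Figure D5:**
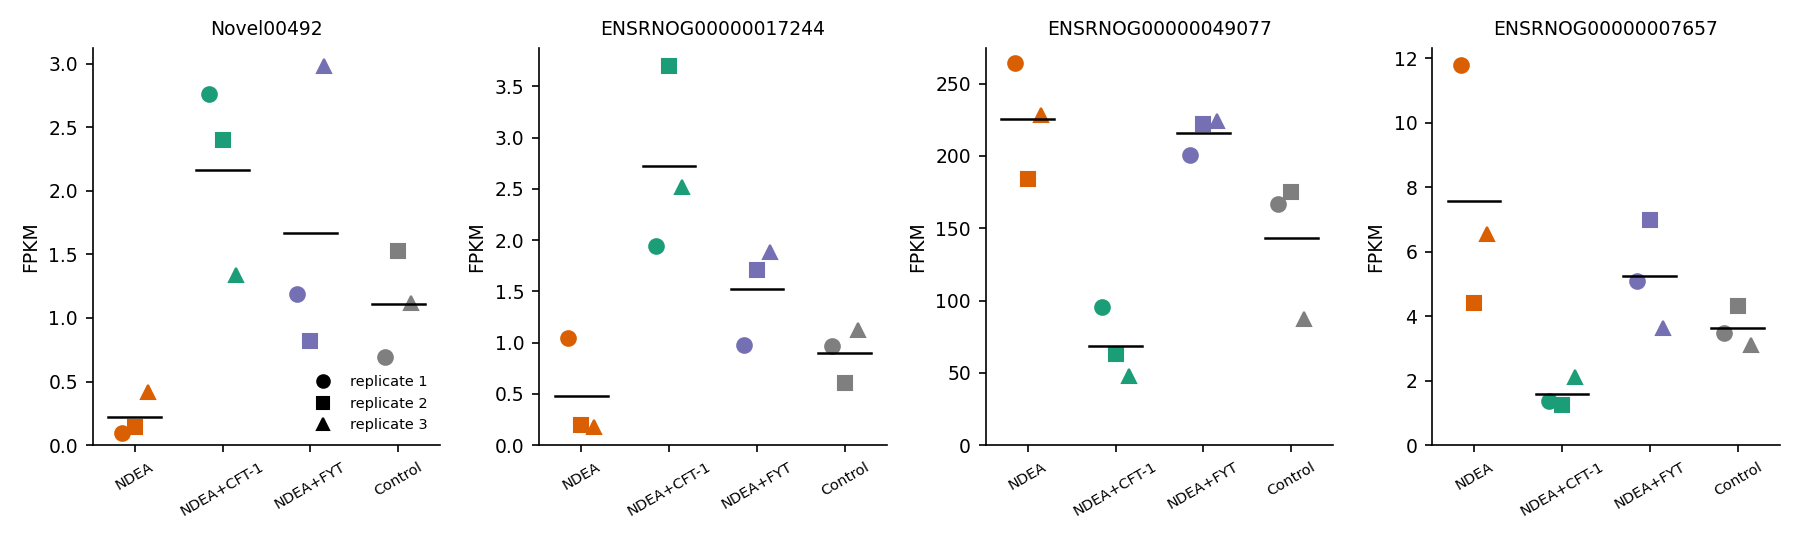
FPKM of the 4 single IDs (1 panel each) in all 12 libraries; symbols mark replicates and bars the group means. The NDEA+CFT-1 values lie above the NDEA values for the left pair of panels and below them for the right pair.

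The contrasts with NDEA and with NDEA+FYT share the NDEA+CFT-1 libraries, so the latter is no independent check of the former.

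Some of the largest fold changes came from short genes with uneven or few reads. The highest log2 fold change of the 12 higher IDs, 6.30, belonged to a gene of 57 bp with 1370, 1350 and 145 FPKM with CFT-1 and 9.06, 0 and 54.0 FPKM in the NDEA libraries. The same gene had 1.54, 1340 and 16.3 FPKM in the Control libraries, so 1 Control library was close to the highest libraries with CFT-1. The lowest log2 fold change of the 12 lower IDs, -2.19, belonged to a gene of 75 bp with 2, 0 and 2 reads with CFT-1 and 11, 18 and 4 reads in the NDEA libraries. Another, of 530 bp, had 337 reads in NDEA replicate 1 but 8 and 14 in NDEA replicates 2 and 3, against 2, 3 and 3 with CFT-1.

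Set directly against NDEA+FYT, the group given the tea with less EGCG, the NDEA+CFT-1 group differed at an adjusted p under 0.05 for 0 of 11983 IDs in limma. At the unadjusted threshold 622 IDs differed (5.19%), and 684 after scaling (5.71%). The count test on recovered reads also made 0 calls, with 668 IDs at the unadjusted threshold. Library weights on the deposited values gave 259 calls (2.16%), but with scaling and weights there were 0. At the unadjusted threshold, library weights gave 2710 IDs, leaving out NDEA replicate 1 gave 937, leaving out NDEA+CFT-1 replicate 1 gave 824 and leaving out NDEA+CFT-1 replicate 2 gave 296. Calls between the 2 teas thus depended on the setting, and the 0 calls of the unweighted fits do not show that the teas act alike.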

How the data were processed

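Liver RNA was sequenced on libraries made with the NEBNext Ultra kit. Per the labels, the submitters' processing notes name Trimmomatic, HISAT2, HTSeq 0.6.1 and the genome build Rnor_6.0, and the authors deposited 1 table of FPKM values for 12 libraries. The columns not used number 0. FPKM divides reads by gene length and by the reads on genes of that library, so a few abundant genes shift all others, which the scaling addresses.

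In the deposited FPKM values, 1 whole divisor per library and 1 whole length per gene returned whole reads (within 0.01 of a read) for 100.00% of the tested IDs. The recovered reads summed to 100.00% of each divisor, so depth is known: 15495309 to 25718705 reads on genes. Lengths printed are the recovered ones.

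IDs with a mean of at least 1 FPKM over the 6 libraries were compared in R 4.3.3 with limma 3.58.1 (eBayes with a mean-variance trend) on log2(FPKM + 1), with the 4 groups in 1 fit, which leaves 8 residual degrees of freedom, and with Benjamini-Hochberg adjustment at 0.05. The study's own count-based test was not run; the recovered reads were tested with limma-voom as an alternative. Median-of-ratios scaling, quantile normalization, a pseudocount of 0.1, other filters, library weights, a replicate block and left-out libraries were tried. The fit was tested on simulated data. Figures were drawn with matplotlib 3.10.9 in Python 3.11.15.

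The rule for single IDs took the 12 largest differences in each direction among IDs without overlap and with an unadjusted p under 0.05 on both scales. Members of gene lists, qPCR genes and cell type markers were also to be named, but no ID could be paired with a symbol, so none was analysed. Members and lists were chosen with earlier results of these data known. The labels give no batch.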

Additional observations from a re-analysis of the deposited data

How the results depend on the processing

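The unweighted fits kept 0 calls throughout; library weights gave 6, scaling with weights 76 and voom with quality weights 75. IDs higher at the unadjusted threshold numbered 726 (scaled), 637 (quantile), 84 (only the 6 libraries), 925 (library weights), 714 (voom), 1057 (voom with quality weights), 1101 (scaled with weights) and 440 (NDEA replicate 1 and NDEA+CFT-1 replicate 2 left out), and 109 to 408 with 1 library left out. Lower IDs numbered 684 (quantile), 2192 (no filter, more IDs tested), 569 (at least 5 FPKM, fewer tested), 762 (only the 6 libraries) and 351 (both libraries left out), and 614 to 2151 with 1 left out. IDs without overlap numbered 951 (scaled), 899 (quantile) and 2682 (both left out) higher (392 to 1250 with 1 left out), and 858 (quantile), 2860 (no filter) 712 (at least 5 FPKM) and 2211 (both left out) lower (1852 to 3141 with 1 left out). Smaller groups fail to overlap more often by construction, so the counts with libraries left out are not comparable with those of 3 against 3. IDs at least 2-fold apart numbered 57 (scaled) and 35 to 74 (1 left out) higher, and 320 (scaled), 269 (quantile), 282 (at least 5 FPKM), 161 (both left out) and 182 to 1119 (1 left out) lower. The median log2 fold change ran from -0.24 to -0.04 with 1 library left out. With the classes formed anew in each setting, the difference between abundant and low IDs was 0.01 after quantile normalization, which gives every library the same distribution, 0.17 with both libraries left out, and 0.28 to 0.53 with 1 left out. Other causes were not tested. The 4 single IDs kept their direction under every alternative in which they were tested. As they were chosen for groups without overlap, leaving out libraries could not turn it. Novel00492 was not tested without NDEA+CFT-1 replicate 1 or without NDEA+CFT-1 replicate 2, where its mean fell under the filter. Voom, both weighted scaled fits and the joint left-out pair, and the difference between abundant and low IDs, were chosen after the data were seen. With the replicate number as a block, 0 IDs were called, and 196 were higher and 1374 lower at the unadjusted threshold. Deviations of same-numbered libraries correlated at -0.34, -0.47 and -0.05, and those of differently numbered libraries at -0.21 to 0.38. Deviations inside a group depend on each other, and the libraries that stand apart weigh on them. These correlations therefore cannot show whether the numbers pair samples. Alternatives on gene lists were not run because no ID could be paired with a symbol. At this depth, IDs read in 1 group alone mostly had under 10 reads, and what difference could be detected there was not tested.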
